A study of Mus musculus with 4 samples.

Results

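Quiescent T cells hold back growth and division through a set of genes that sit around the FoxO transcription factors, and 10 of these genes were followed here through the activation of CD4+ T cells with and without the transcriptional repressor Capicua (CIC). They were taken by gene name from 23339 named genes and 31171 loci of the deposited tables. The set holds the factors *Foxo1* and *Foxo3*, the nutrient and stress genes *Pik3ip1*, *Ddit4*, *Sesn1*, *Sesn3*, *Txnip* and *Tsc22d3*, and the antiproliferative genes *Btg1* and *Btg2*. All 10 were found and all 10 passed the expression minimum in every comparison. The rule names the genes and uses no threshold on their values, but the genes were chosen with earlier results of these data known.

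In resting T cells, FoxO factors stay in the nucleus and drive genes of homing, survival and arrest. Signals from the antigen receptor and CD28 activate PI3K and the kinase AKT, which phosphorylates FoxO proteins and moves them to the cytoplasm, and they also switch on the growth-promoting kinase complex mTORC1. Several of the genes described here act as brakes on that route, at PI3K, at mTORC1, at glucose uptake or at the stability of mRNA.

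RNA was sequenced from 4 libraries, 1 for each genotype and time. WT mice were *Cic* f/f and cKO mice were *Cic* f/f; *Cd4-Cre*, both on C57BL/6J and aged 10 to 12 weeks by the labels, so the floxed allele was carried by controls as well. Cre was driven by the *Cd4* promoter, which is active from the thymocyte stage that carries both CD4 and CD8. CD4+ T cells from spleen were taken on day 0, called naïve, or on day 3 of culture on plate-bound anti-CD3 and anti-CD28, each at 2 μg/ml. The labels describe the naïve gate as high in CD44, whereas the methods of the study describe it as low. *Cd44* had 19.2 FPKM in resting WT and 12.6 in resting cKO. How many mice went into a library is not given in the sources used here. Each group has 1 library, so differences below carry no error from replicates and no p-value. Cells of day 0 are called resting and cells of day 3 activated.

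Values are FPKM (fragments scaled to transcript length and to the mapped fragments of the library), which allow levels of different genes to be compared per length. A difference is the log2 of 2 FPKM values after 0.1 is added to each, and a gene was used where 1 of the libraries reached an FPKM of 1. A gene is called higher or lower where that ratio lies beyond 1.5 in size. Day 3 was read against day 0 within a table. WT and cKO stand in separately normalized tables, which applies to every ratio of cKO to WT below. In bulk RNA, fewer cells of a type and less RNA per cell cannot be told apart.

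Division was under way on day 3 in either genotype. *Mki67*, which marks cycling cells, rose from 15.1 to 238 FPKM in WT and from 9.90 to 234 in cKO. *Cic* itself had 25.4 FPKM in WT and 24.9 in cKO on day 0, and 17.8 and 12.2 on day 3. Its locus is shared with other genes and the table does not resolve the deleted part, so these levels do not check the genotype. The 10 T-cell identity genes (among them *Cd3e*, *Lck* and *Thy1*) summed to 1354 FPKM in resting WT, 1568 in activated WT, 1596 in resting cKO and 1705 in activated cKO, with none under 38.2. Macrophage and monocyte genes, 10 in all, summed to 249.3 and 77.7 FPKM on day 0 in WT and cKO. On day 3 that sum was 5.08 and 5.17, with *C1qa*, *C1qb*, *C1qc* and *Emr1* listed at 0 in both libraries. The 8 B-cell genes summed to 21.5 FPKM in resting WT, 45.0 in resting cKO, 46.9 in activated WT and 59.3 in activated cKO. The 6 erythroid genes summed to 32.6 FPKM in WT and 11.0 in cKO on day 0 and to 20.0 and 11.6 on day 3, and the 6 neutrophil genes to 61.3 and 30.6 on day 0 and to under 1 on day 3. The part of these other cells in the results below was not tested.

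Over 3 days of stimulation, 7 of the 10 genes fell past the size rule in WT cells and the same 7 fell in cKO cells. Across all genes tested, 8.84% were lower by that rule in WT and 6.96% in cKO. The 10 genes were chosen as genes of resting T cells, with earlier results known, so this contrast is no independent evidence. *Ddit4* alone was higher, where 19.0% and 17.3% of all genes were. *Foxo3* and *Sesn3* stayed within the rule. Ratios above 0 were seen for 2 of the 10 genes in each genotype, *Ddit4* and *Sesn3*, and for 63.5% of all genes in WT and 63.7% in cKO. The median log2 ratio of the 10 genes was -1.89 in WT and -1.74 in cKO. The median of all genes was above 0, at 0.40 in WT and 0.36 in cKO, so relative to the median gene the falls were larger by those amounts and the rise of *Ddit4* was smaller, at 1.34 in WT and 1.31 in cKO, which is short of the size rule.

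**Figure D1:**
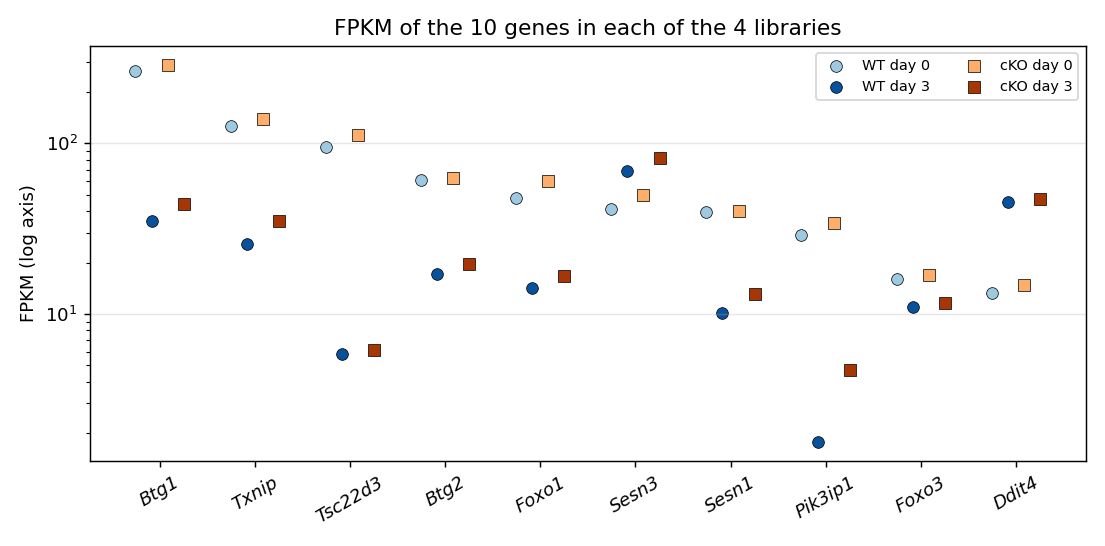
FPKM of the 10 genes (log axis) in the 4 libraries, ordered by the level in resting WT; circles are WT and squares cKO, pale on day 0 and dark on day 3. Each point is 1 library, and the day 3 points lie under the day 0 points for every gene except *Sesn3* and *Ddit4*.

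With *Pik3ip1* taken from the row of its highest level, the order of the levels was the same in both genotypes before stimulation. On day 0 it ran from *Btg1* at the top through *Txnip*, *Tsc22d3*, *Btg2*, *Foxo1*, *Sesn3*, *Sesn1*, *Pik3ip1* and *Foxo3* to *Ddit4*, and *Btg1* stood 19.8 times above *Ddit4* in WT and 19.6 times in cKO. On day 3 the 2 genes with ratios above 0 led, *Sesn3* with 68.9 FPKM in WT and 82.5 in cKO and then *Ddit4*. *Pik3ip1* was last in both by that row. The day 3 orders of WT and cKO then differed only in that *Sesn1* and *Foxo3*, which were close, changed places. With its 3 rows summed, *Pik3ip1* stood just above *Sesn3* in resting WT and just below it in resting cKO, and above *Tsc22d3* in activated cKO. Without replicates it is not known which neighbours in these orders differ. Summed over the 10 genes, FPKM went from 734 to 235 in WT and from 818 to 281 in cKO.

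*Foxo1* encodes the FoxO factor that keeps naïve T cells quiescent and homing to lymph nodes, in part by driving *Klf2* and *Il7r*. Its FPKM was 47.6 in resting WT, 14.1 in activated WT, 60.1 in resting cKO and 16.8 in activated cKO. Both day 3 libraries were low and both day 0 libraries high, and log2 ratios of day 3 to day 0 were -1.74 in WT and -1.83 in cKO. *Foxo3*, a close relative known for driving genes of arrest and cell death, had 16.1 and 10.9 FPKM in WT and 16.8 and 11.6 in cKO. It was lower on day 3 as well, but by -0.55 and -0.53, inside the size rule. On day 0 *Foxo1* thus stood well above *Foxo3*, and on day 3 their levels were close. *Foxo1* lay on chr3:52268337-52353102 and *Foxo3* on chr10:42180974-42277597 as deposited.

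Among the relatives of these factors, *Foxo4* had 14.7, 5.50, 12.8 and 6.99 FPKM in resting WT, activated WT, resting cKO and activated cKO, with log2 ratios over time of -1.40 in WT and -0.87 in cKO. *Foxo6*, known mainly from brain, was at 0 in 3 libraries and at 0.0474 FPKM in activated WT.

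*Pik3ip1* encodes a membrane protein that binds the catalytic subunit of PI3K and inhibits it, so that it acts at the top of the route that inactivates FoxO proteins. Its main row gave 28.8 FPKM in resting WT, 1.77 in activated WT, 34.2 in resting cKO and 4.72 in activated cKO. That fall, of -3.95 in WT and -2.83 in cKO on the log2 scale, was among the steepest of the set in both genotypes. The tables hold 3 rows of this name inside a crowded bundle at chr11:3202353-3479831, in which *Patz1*, *Drg1*, *Limk2* and other genes lie as well. The other rows were also lower on day 3, with 6.82, 1.12, 7.71 and 1.49 FPKM in the first of them (resting WT, activated WT, resting cKO, activated cKO) and 5.97, 1.97, 6.93 and 0.561 in the next. Summed over the 3 rows the levels were 41.6, 4.87, 48.9 and 6.77, and the fall was -3.07 in WT and -2.83 in cKO.

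*Ddit4*, which encodes the stress-induced mTORC1 inhibitor REDD1, went the other way. It had 13.3 FPKM in resting WT and 45.1 in activated WT, and 14.8 and 47.4 in cKO. The log2 ratios were 1.75 and 1.68. It was thus the lowest of the 10 genes before stimulation and the second highest after it. Its promoter is shown because it alone of the 10 genes was higher by the size rule. Relative to the median gene it was short of that rule, at 1.34 in WT and 1.31 in cKO. In RefSeq (GRCm38.p6), the 250 bases before its start, chr10:59951771-59952020 on the minus strand, read as follows, with no capitals since none of the motifs searched below was found.
Ddit4: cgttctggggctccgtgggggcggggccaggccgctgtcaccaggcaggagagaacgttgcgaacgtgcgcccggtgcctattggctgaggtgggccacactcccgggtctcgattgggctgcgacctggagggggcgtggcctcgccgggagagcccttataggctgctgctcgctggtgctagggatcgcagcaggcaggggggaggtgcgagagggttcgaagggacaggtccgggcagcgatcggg

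Sestrins bind the GATOR2 complex and restrain mTORC1 when amino acids are short. Of the family members in the set, *Sesn1* fell past the size rule and *Sesn3* did not pass it. *Sesn1* had 39.5 FPKM in resting WT, 10.1 in activated WT, 40.4 in resting cKO and 13.1 in activated cKO, which made log2 ratios over time of -1.95 and -1.61. *Sesn3* had 41.5, 68.9, 49.6 and 82.5 FPKM in the same order, a log2 ratio of 0.73 in each genotype. The levels of these genes were near each other on day 0 and far apart on day 3. Relative to the median gene, the ratio of *Sesn3* was 0.33 in WT and 0.37 in cKO. *Sesn2*, which encodes a leucine-binding sestrin, had 1.96 and 6.52 FPKM in WT and 1.85 and 3.72 in cKO, with ratios of 1.68 and 0.97. *Sesn1* lay on chr10:41810574-41908669 and *Sesn3* on chr9:14276301-14336733.

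*Txnip* encodes an arrestin-like protein that binds thioredoxin and limits glucose uptake. It had 126 FPKM in resting WT, 25.8 in activated WT, 139 in resting cKO and 35.0 in activated cKO, and its log2 ratios were -2.29 and -1.99. Both day 3 libraries stood far under both day 0 libraries. *Gm15441*, which lies within the *Txnip* locus at chr3:96555768-96566801, had 1.19, 0.147, 1.46 and 0.0695 FPKM. Whether the counting used strand is not given in the sources used here, so some reads of this pair may have been divided wrongly. Arrestin relatives of *Txnip* were lower in level throughout. *Arrdc3*, with 8.47, 4.29, 11.1 and 4.81 FPKM, had ratios over time of -0.96 and -1.19, and *Arrdc4*, close to *Txnip* in sequence and in its control by glucose, lay between 0.694 and 1.22 FPKM.

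*Tsc22d3* encodes GILZ, the glucocorticoid-induced leucine zipper protein, which restrains inflammatory signalling. Its FPKM was 95.3 in resting WT, 5.84 in activated WT, 111 in resting cKO and 6.17 in activated cKO. With log2 ratios of -4.00 in WT and -4.15 in cKO it showed the deepest fall of the 10 genes in both genotypes. Of all genes tested in WT, 1.15% had a lower ratio, and 0.721% in cKO. Its relatives *Tsc22d1* and *Tsc22d2* had ratios between -0.64 and -0.99, and *Tsc22d4* ratios of 0.02 and -0.05.

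*Btg1* and *Btg2* encode antiproliferative proteins that bring the CCR4-NOT deadenylase to mRNA and in mouse T cells hold mRNA levels low at rest. *Btg1* was the most abundant of the set before stimulation, at rank 155 of all named genes in either day 0 library. It had 265 FPKM in resting WT and 35.1 in activated WT, and 289 and 43.9 in cKO, with log2 ratios of -2.91 and -2.71. *Btg2* had 60.9, 17.1, 62.4 and 19.7 FPKM in resting WT, activated WT, resting cKO and activated cKO, and its ratios were -1.83 and -1.66. The related *Tob1*, a quiescence factor of T cells, fell with them, from 15.4 to 3.80 FPKM in WT and from 17.8 to 4.47 in cKO, by -2.00 and -1.96. *Tob2* had ratios of -1.02 and -1.35, and *Btg3* ratios of 0.48 and 0.14. *Btg1* lay on chr10:96616834-96644889 and *Btg2* on chr1:134073034-134079155.

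**Figure D2:**
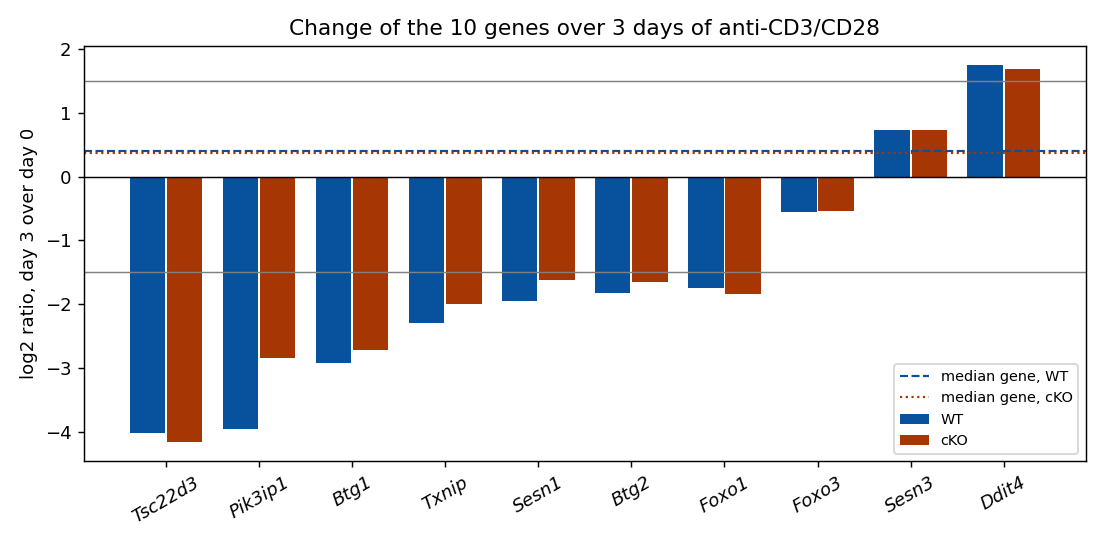
Log2 ratio of day 3 to day 0 for each of the 10 genes in WT (blue) and cKO (brown), 1 library per group; grey lines mark the size rule at 1.5 and -1.5, and the dashed and dotted lines the median of all genes at 0.40 in WT and 0.36 in cKO. Bars of *Tsc22d3*, *Pik3ip1*, *Btg1*, *Txnip*, *Sesn1*, *Btg2* and *Foxo1* pass the lower line in both genotypes, and those of *Ddit4* the upper.

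Promoters were searched for the core letters of the FoxO site, TGTTTAC on either strand, in 300-base RefSeq windows that reach from 250 bases before a start to 50 after it. All 10 genes matched a window by symbol, with 13 windows in all, and 3 of the 10 genes held the letters, against 4.05% of 27025 genes. These were *Btg1*, *Txnip* and *Sesn1*, each of which fell past the size rule in both genotypes. *Foxo1*, *Tsc22d3*, *Pik3ip1* and *Btg2* also fell and held no match in these windows. The CIC octamers (TGAATGAA, TGAATGGA, TCAATGAA and TCAATGGA on either strand) were in none of the 10, and in 4.45% of all genes. A match describes letters in a window and not a bound site. The matches are shown in capitals, in the 250 bases before the start for *Btg1* (chr10:96616751-96617000) and *Txnip* (chr3:96557707-96557956), where they begin 204 and 121 bases before it, and in 30 bases after the upstream start of *Sesn1* (chr10:41810585-41810614), where the match begins at base 23 of the transcript. All 3 genes lie on the plus strand. In *Txnip* the capitals further right mark a carbohydrate response element, searched on either strand as the letters CACGAG repeated after 5 bases, the kind of site through which MondoA and its partner MLX drive this gene with glucose. That motif was looked for after the sequence had been read. It begins 85 bases before the start. The letters searched were those read in *Txnip*, so a match there was fixed in advance. It was the only match in 32851 windows, which counts this exact string and not other forms of such a site.
Btg1: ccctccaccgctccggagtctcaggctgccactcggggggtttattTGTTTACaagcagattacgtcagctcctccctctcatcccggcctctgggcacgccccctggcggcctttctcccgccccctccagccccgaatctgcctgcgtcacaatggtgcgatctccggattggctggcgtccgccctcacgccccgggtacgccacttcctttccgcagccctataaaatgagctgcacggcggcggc
Txnip: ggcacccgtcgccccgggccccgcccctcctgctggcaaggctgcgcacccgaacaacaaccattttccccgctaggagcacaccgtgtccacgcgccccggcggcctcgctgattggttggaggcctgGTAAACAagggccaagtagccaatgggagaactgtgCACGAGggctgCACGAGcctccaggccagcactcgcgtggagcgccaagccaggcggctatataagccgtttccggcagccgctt
Sesn1: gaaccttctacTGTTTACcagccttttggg

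The next question was whether loss of CIC changed these genes. None of the 10 passed the size rule between cKO and WT, on day 0 or on day 3. Of all genes, 0.486% were higher and 1.81% lower by that rule on day 0, and 0.743% and 1.21% on day 3. The ratios were small, and all 10 lay above 0 at both times, whereas 50.3% of all genes had a ratio above 0 on day 0 and 42.3% on day 3. The median log2 ratio of the set was 0.14 on day 0 and 0.25 on day 3, beside 0.00171 and -0.05 for all genes. The comparisons on the 2 days use different libraries, and each direction rests on 1 library against 1. Whether both days of a genotype share mice is not given, so the 2 days may not be separate.

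**Figure D3:**
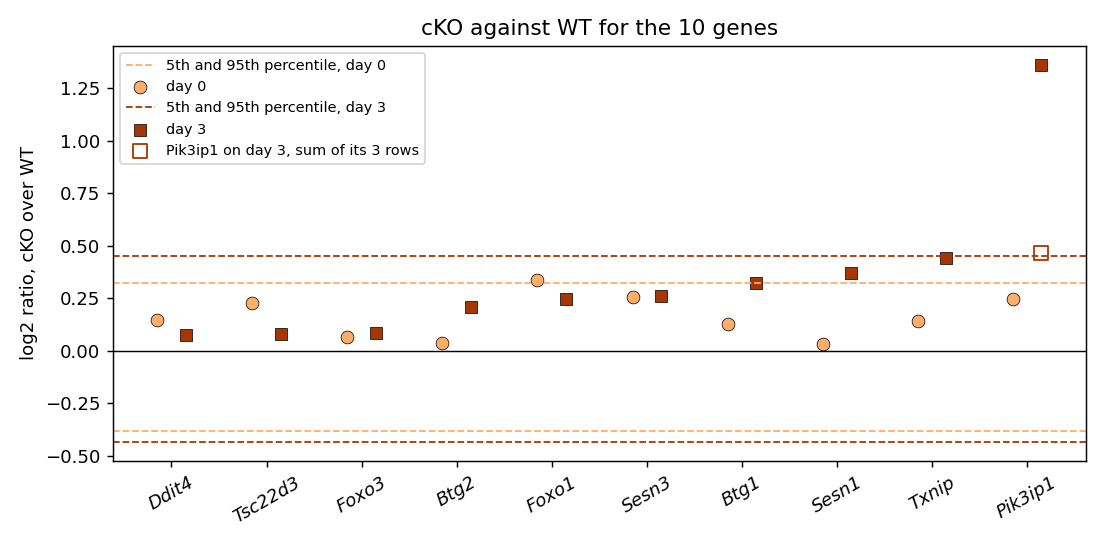
Log2 ratio of cKO to WT for the 10 genes on day 0 (pale circles) and day 3 (dark squares), 1 library per group; dashed lines give the 5th and 95th percentile of well expressed genes (mean FPKM of at least 10) on each day. All 20 points lie above 0, and the open square shows that *Pik3ip1* on day 3 drops from 1.36 to 0.47 when its 3 rows are summed.

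On day 0 the ratios ran from 0.03 for *Sesn1* and *Btg2* to 0.33 for *Foxo1*. Well expressed genes, with a mean FPKM of at least 10, had a 5th to 95th percentile range of -0.38 to 0.32 that day. *Foxo1* stood just past the upper end, with 95.3% of these genes below it, and the other 9 lay inside. *Sesn3* and *Pik3ip1* followed at 0.26 and 0.25.

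On day 3 the range of well expressed genes was -0.44 to 0.45. Here *Pik3ip1* stood apart, with 1.77 FPKM in WT and 4.72 in cKO and a ratio of 1.36 that was higher than that of 99.4% of them. This rests on the row chosen. In the other rows of that name the ratios were 0.38 and -1.65, and the sum over the 3 rows gave 0.47. *Txnip* had a ratio of 0.44, *Sesn1* of 0.37, *Btg1* of 0.32, *Sesn3* of 0.26, *Foxo1* of 0.25 and *Btg2* of 0.21. *Foxo3*, *Tsc22d3* and *Ddit4* were nearest to 0, at 0.08, 0.08 and 0.07.

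The difference of the activation ratios, cKO minus WT, was above 0 for 7 of the 10 genes and for 45.7% of all genes. It was 1.12 for *Pik3ip1* by its main row and 0.24 by the sum over its rows. It was 0.34 for *Sesn1*, 0.30 for *Txnip*, 0.20 for *Btg1* and 0.17 for *Btg2*, so that on day 3 these genes were closer to their day 0 level in cKO than in WT. For *Foxo3* it was 0.02 and for *Sesn3* 0.00143. *Foxo1*, *Tsc22d3* and *Ddit4* had values of -0.09, -0.15 and -0.07. The ratios of both genotypes on both days share the same 4 libraries, so these differences are no independent count.

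Beside these small ratios, the T-cell identity genes had a median ratio of cKO to WT of 0.13 at both times. In that list 9 of 10 lay above 0 on day 0 and 7 on day 3, beside 50.3% and 42.3% of all genes. *Cd4*, the marker the cells were sorted by and the gene whose promoter drives Cre, had 135 and 242 FPKM in resting WT and cKO and 86.3 and 174 in activated WT and cKO, with ratios of 0.84 and 1.01, the highest of that list. Of the macrophage and monocyte genes, all 10 had ratios below 0 on day 0, with a median of -1.84, and of the 8 B-cell genes all had ratios above 0, with a median of 1.10. The cell cycle genes measured on day 0, 11 in number, were all below 0, with a median of -0.46, and on day 3 the median of 12 was -0.09. Their part in the ratios of the 10 genes was not tested.

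Of 26 measured genes that FoxO factors are known to drive in T cells or other cells, 10 were lower and 2 higher over time in WT by the size rule, and 6 lower and 2 higher in cKO. Among all genes 8.84% were lower and 19.0% higher in WT, and 6.96% and 17.3% in cKO. This list and those below were chosen with earlier results of these data known, so their contrasts with all genes are no independent evidence. The medians of the FoxO target list were -1.29 and -0.98, and 22 and 23 of its genes had ratios below 0. *Klf2*, which controls trafficking and quiescence, had 131 FPKM in resting WT, 5.87 in activated WT, 139 in resting cKO and 14.9 in activated cKO, with ratios over time of -4.46 and -3.21. *S1pr1*, the receptor for exit from lymph nodes and a target of KLF2, had 167, 8.16, 182 and 19.7 FPKM, with ratios of -4.34 and -3.20. In both, the activated WT library was the lowest. *Fbxo32*, an ubiquitin ligase of muscle atrophy, had ratios of -2.68 and -2.49 and *Ypel3* of -2.65 and -2.12. The autophagy genes *Bnip3* and *Gabarapl1* rose. *Bnip3*, which is also induced by hypoxia, went from 2.25 to 52.9 FPKM in WT and from 1.58 to 57.4 in cKO, and *Gabarapl1* had ratios of 2.30 and 2.55.

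**Figure D4:**
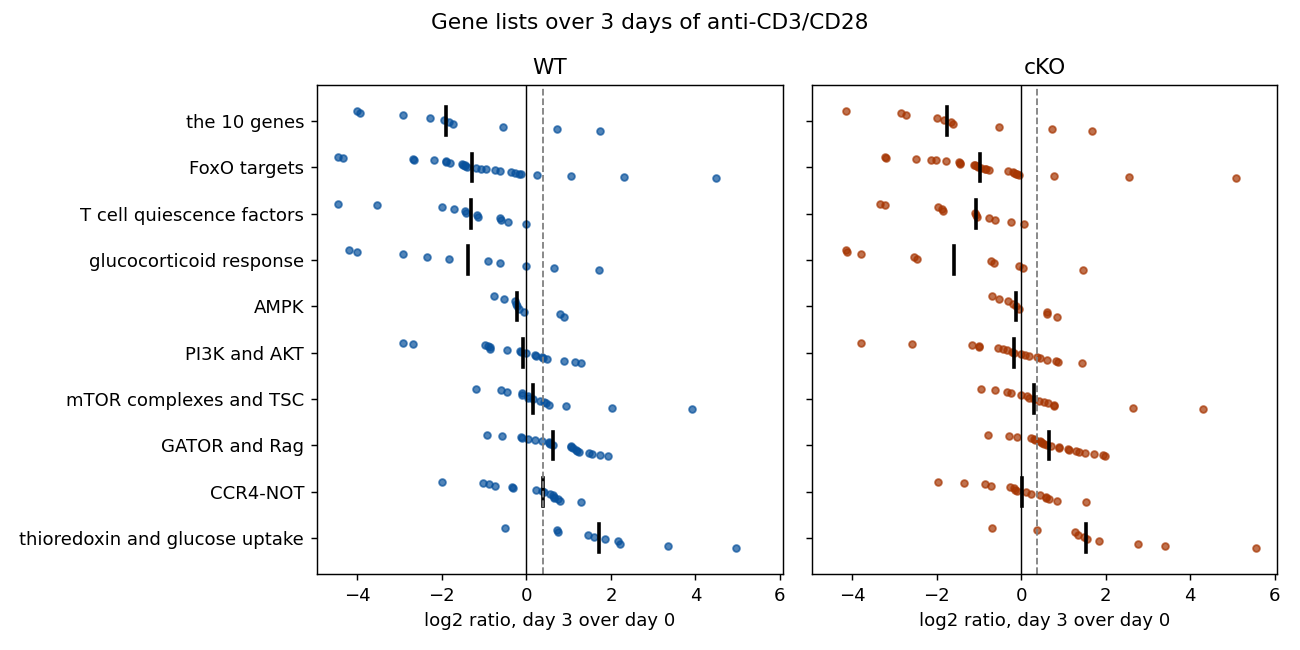
Log2 ratio of day 3 to day 0 for the 10 genes and for 9 gene lists, in WT (left) and cKO (right); each point is a gene, black bars are list medians and the dashed line is the median of all genes. FoxO targets (median -1.29 in WT), T cell quiescence factors (-1.30) and glucocorticoid response genes (-1.37) lie to the left, and thioredoxin and glucose uptake genes (1.73) to the right.

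On day 3, 18 of the 26 FoxO targets had ratios of cKO to WT above 0, with a median of 0.26, beside 42.3% of all genes. On day 0, 17 did, with a median of 0.08, beside 50.3% of all genes. None of the targets passed the size rule. Ratios over 1 were seen on day 3 for 4 of them, and for 2.09% of all genes. *Klf2* had 1.33 and *S1pr1* 1.27. *Trp53inp1*, an autophagy and stress gene, had 46.0 FPKM in resting WT, 12.2 in activated WT, 61.4 in resting cKO and 34.2 in activated cKO, with a ratio of 1.48 on day 3. *Ccr7*, the homing receptor for lymph nodes, had 92.4, 43.7, 120 and 96.7 FPKM and a ratio of 1.14. These last genes were named after their values were seen. *Il7r*, a target of *Foxo1* in naïve cells, went the other way, with 119, 41.6, 79.0 and 28.3 FPKM and ratios of cKO to WT of -0.59 on day 0 and -0.55 on day 3. *Tcf7*, a factor of naïve and memory cells, had 182, 22.3, 191 and 47.2 FPKM and a ratio of 1.08 on day 3. That day 7 of 8 naïve and memory genes lay above 0 with a median of 0.82, beside 42.3% of all genes. *Klf2*, *S1pr1*, *Ccr7* and *Il7r* stand in both lists, so they are not separate.

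**Figure D5:**
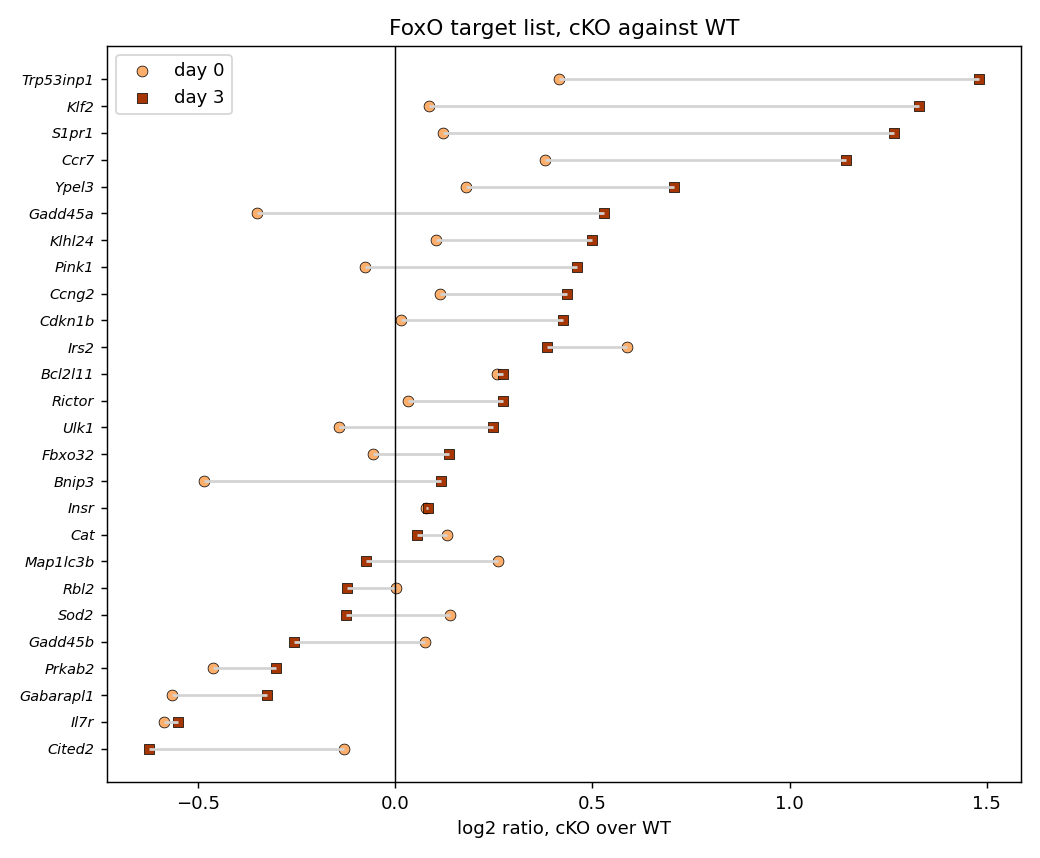
Log2 ratio of cKO to WT for the 26 measured FoxO targets on day 0 (pale circles) and day 3 (dark squares), ordered by day 3, 1 library per group. *Trp53inp1*, *Klf2*, *S1pr1* and *Ccr7* have day 3 ratios from 1.48 down to 1.14, and *Cited2* and *Il7r* lie lowest.

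Upstream of the FoxO factors, most genes of PI3K and AKT stayed within the size rule. Of 18 measured over time in WT, 2 were lower and none higher, and of 19 in cKO also 2 were lower, with medians of -0.07 and -0.18. Among all genes 8.84% were lower and 19.0% higher in WT, and 6.96% and 17.3% in cKO. The counts of lower genes are near those shares and are no result about the list. The genes that fell were *Sgk1* and *Sgk3*, kinases of the AKT family that also phosphorylate FoxO proteins. *Sgk1* had 17.9 and 2.30 FPKM in WT and 18.3 and 1.23 in cKO, with ratios of -2.91 and -3.79, and *Sgk3* ratios of -2.67 and -2.59. *Akt1* had ratios of 1.29 and 0.87.

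Around mTORC1, the target of the sestrins and of *Ddit4*, 2 of 15 genes were higher in each genotype and none was lower, with medians of 0.16 and 0.30, below the medians of 0.40 and 0.36 of all genes. *Eif4ebp1*, which encodes a translation repressor that mTORC1 inactivates, rose from 2.63 to 41.4 FPKM in WT and from 1.64 to 34.4 in cKO, and *Tbc1d7*, of the TSC complex, had ratios of 2.04 and 2.64. In the GATOR and Rag branch, through which sestrins act, 3 of 21 were higher in WT and 4 of 22 in cKO, with medians of 0.63 and 0.66. These counts of both lists are near or below the shares of all genes, 19.0% and 17.3%, and are no result about them. *Sec13*, a GATOR2 subunit, had ratios of 1.75 and 1.73, and *Gatsl3*, which encodes an arginine sensor, 1.93 and 1.95. None of 9 AMPK genes passed the rule in either genotype, and with so few genes this is no result about them. By the rule 8.84% of all genes were lower in WT and 6.96% in cKO.

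A further list was made around thioredoxin and glucose uptake, the functions that *Txnip* limits. It also holds the hexokinase genes *Hk1* and *Hk2*, and *Mlxip* and *Mlx*, whose products drive *Txnip*. Of its 10 measured genes, 6 were higher in WT and 5 in cKO and none was lower, with medians of 1.73 and 1.53. Among all genes 19.0% were higher and 8.84% lower in WT, and 17.3% and 6.96% in cKO. *Mlxip*, which encodes MondoA, had ratios of -0.50 and -0.68, and *Mlx* of 0.75 and 0.37. Both were named after their values were seen. *Txn1*, thioredoxin itself, had 21.6 FPKM in resting WT, 219 in activated WT, 17.3 in resting cKO and 183 in activated cKO. *Hk2*, the inducible hexokinase, went from 1.48 to 48.9 FPKM in WT and from 0.697 to 37.6 in cKO. *Slc2a3*, a glucose transporter, had ratios of 2.17 and 2.76.

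For *Tsc22d3* the related list was the glucocorticoid response, of which it is itself a member. Of 10 genes, 5 were lower in each genotype and 1 was higher in WT. *Dusp1*, a MAP kinase phosphatase, fell as far, from 88.1 to 4.74 FPKM in WT and from 89.5 to 5.02 in cKO, with ratios of -4.19 and -4.13. *Per1* had ratios of -2.34 and -2.47. *Fkbp5*, induced by the same receptor, had ratios of 1.72 and 1.47, the first past the rule and the second short of it. For *Btg1* and *Btg2* it was a list around the CCR4-NOT deadenylase. Beside subunits of that complex it holds the relatives *Tob1* and *Tob2*, and *Pan2*, *Pan3* and *Pabpc1*. Of the 16 genes listed, 1 was lower in each genotype, the relative *Tob1*, so no subunit was. In cKO 1 was higher, *Rqcd1*, with ratios of 1.30 in WT and 1.54 in cKO. Of 12 T cell quiescence factors, 4 were lower in WT and 5 in cKO and none was higher. They included *Klf4* with 9.11 and 0.692 FPKM in WT and 6.70 and 0.576 in cKO, and *4632428N05Rik* (VISTA) with ratios of -1.71 and -1.88. Among all genes 8.84% were lower and 19.0% higher in WT, and 6.96% and 17.3% in cKO. The CCR4-NOT counts are near or below those shares and are no result about that list. Some genes stand in more than 1 list, such as *Tob1* and *Klf2*.

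Among 8767 other genes that reached an FPKM of 5, those with the profile over the 4 libraries nearest to the mean of the 10 genes were *Stk38*, *Smarca2*, *Grap2*, *Clk1* and *Rab6b*. *Stk38*, a kinase gene, was at a distance of 0.0407 log2 units, with 77.7, 25.2, 87.2 and 31.3 FPKM in resting WT, activated WT, resting cKO and activated cKO. Among the 10, *Btg2*, *Sesn1* and *Foxo1* were nearest to their own mean, at 0.206, 0.221 and 0.250, and *Ddit4* was farthest, at 3.30. The profile has 4 points, each from 1 library, so many genes may lie near it.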

How the data were processed

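The authors mapped reads with TopHat2 2.0.10 and, with Cufflinks 2.1.1, deposited FPKM values for 31171 loci in 4 tables (CASAVA is also named in the submitters' processing notes). Their fold changes, p-values and q-values stand beside them and were not used, nor were 16 annotation tables. In the tables that name cKO and WT as the pair, both columns were weighted means of libraries, so FPKM came from the tables of day 3 against day 0, 1 for WT and 1 for cKO, and the others gave only a common scale. Of the loci, 7265 carry no name, and 25 names that had become dates were read from another table. For a name on several rows, the row of highest mean FPKM was used. A locus is a bundle that can hold several genes. The notes name mm9, but 44.1% of 21634 genes shared their end with RefSeq GRCm38.p6 and 0.716% of 20239 with mm9 genes, so coordinates are GRCm38, with 1 added to each start. The members and lists were chosen with earlier results of these data known. A gene of 2 lists is not reported here and was left out of their counts. Named were all 10 members, their relatives, up to 6 genes of each list with the largest ratio among those with an FPKM of at least 5, and the 5 nearest profiles. How many reads a library holds is not stated. From low values, the FPKM of 1 read in cKO was 0.818 times that in WT on day 0 and 0.943 times on day 3. The calculation was tested on simulated data. Alternatives were a pseudocount of 1 or 0.01, a minimum FPKM of 5, no minimum, centring, the common scale, a size threshold of 1, unnamed loci and sums over rows of 1 name. Python 3.11.15, numpy 2.4.6 and pandas 2.3.3 were used.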

Additional observations from a re-analysis of the deposited data

Results flagged for a closer look

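Only the genes that the naming rule picks from the families and lists were screened here, and other genes of the lists meet the same criterion, such as *Rragb* and *Stradb*. Some had a ratio of opposite sign in the 2 comparisons of a kind, each over 0.1 in size; with 1 library per group the difference was not tested. For cKO against WT, day 0 first and day 3 second, these were *Foxo4* with -0.20 and 0.34, *Bnip3* with -0.48 and 0.12, *Akt1s1* with -0.60 and 0.15, *Tbc1d7* with -0.45 and 0.15, *Rqcd1* with -0.10 and 0.14, and *Cd44* with -0.60 and 0.44. The other way round were *Btg3* with 0.14 and -0.21, *Tob2* with 0.13 and -0.19, *Strada* with 0.12 and -0.17, *Cxcr4* with 0.41 and -0.30, and *Klf6* with 0.22 and -0.18. Over time, *Arrdc2*, an arrestin relative of *Txnip*, had 0.25 in WT and -0.16 in cKO. None of the 10 genes themselves was among them.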

How the results depend on the processing

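The count of 7 lower genes in each genotype over time and the sign of every ratio of the 10 genes held under all alternatives run. With values centred on the median gene, 0 of the 10 were higher over time in WT and 0 in cKO, since *Ddit4* came to 1.34 and 1.31. With a size threshold of 1, 1 gene (*Pik3ip1*) was higher in cKO than in WT on day 3. That ratio was 1.04 with a pseudocount of 1 and 0.47 as the sum over rows, and it was not given with an FPKM minimum of 5. The median of the 10 genes lay between -2.29 and -1.82 over time in WT, -2.11 and -1.70 in cKO, 0.13 and 0.14 for cKO against WT on day 0, and 0.24 and 0.30 on day 3. On the common scale the difference of the activation ratios was above 0 for 6 genes, without *Sesn3*, whose value is close to 0. The share of all genes past the rule moved far more. With unnamed loci counted, 25.1% were lower over time in WT and 24.8% in cKO, and with a pseudocount of 1 4.87% and 3.74%. On day 0 the share higher in cKO ran from 0.247% to 3.89% and the share lower from 0.422% to 3.37%, and on day 3 from 0.266% to 4.03% and from 0.441% to 2.64%. No paired analysis was possible because each group has 1 library. Absolute depth is unknown, so no counting interval can be given.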
